A study of Rattus norvegicus with 256 samples.

Results

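The neuropeptide genes described here are Gal, Npy, Vip, Penk, Pdyn, Tac1, Cartpt, Calca and Adcyap1. They were chosen by name. Every probeset of the RAE230_2 array annotated to one of these 9 symbols was taken, which gave 13 probesets of the 31042 on the array, and none of them carried a second gene. Pdyn and Adcyap1 had 2 probesets each, Calca had 3, and the other genes had 1. Expression was measured in 31 organs of male and female Han Wistar-derived rats (AlpkHsdBrlHan:WIST), none of which had been treated. Neither age nor stage of the oestrous cycle is stated in the sources used here. The methods name 5 male and 5 female animals, and each array held RNA from 1 organ of 1 animal. Somatic tissues, 26 in number, took 115 male and 119 female arrays, and the testes, epididymis, prostate, ovary and uterus took 22, with 2 to 5 arrays in each group of organ and sex.

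Neuropeptides are short signalling peptides that are cut from larger precursors in secretory granules. Prohormone convertases make the first cuts, carboxypeptidase E trims the ends and Pam amidates many of the products. The peptides then act on receptors coupled to G proteins, mostly over longer distances and times than classical transmitters. Gal encodes galanin and Npy encodes neuropeptide Y, which sympathetic neurons release together with noradrenaline. Vip encodes vasoactive intestinal peptide, a relaxant transmitter of the gut wall, and Adcyap1 encodes its relative PACAP. Penk and Pdyn encode the precursors of the opioid enkephalins and dynorphins. Tac1 encodes substance P and neurokinin A, and Cartpt encodes the CART peptides. Calca encodes calcitonin, the hormone of the thyroid C cells, and by alternative splicing the neuropeptide CGRP.

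Several of these genes are textbook targets of cAMP signalling, and their promoters are shown for that reason. RefSeq promoter windows on the GRCr8 build, from 250 bases before to 50 after the start, were at hand for 8 of the 9 genes, all but Penk. The core motif TGACG was searched on both strands. It was found in the windows of Vip, Calca, Gal, Cartpt and Tac1, which is 5 of 8, and in 21.2% of all 33469 windows. The full element TGACGTCA, which holds 2 overlapping core motifs, was in Cartpt alone and in 1.83% of all windows. The palindromic oestrogen response element was in none of the 8 and in 0.0269% of all windows. The stretches below lie upstream of the start and run 5′ to 3′ along the gene, and capitals mark the core motif on either strand, or the full element in Cartpt.
Vip (chr1:44470356-44470415, plus strand): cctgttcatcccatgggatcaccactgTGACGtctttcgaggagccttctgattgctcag
Calca (chr1:178317609-178317668, minus strand): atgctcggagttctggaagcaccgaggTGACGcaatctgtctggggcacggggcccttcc
Gal (chr1:210084603-210084662, minus strand): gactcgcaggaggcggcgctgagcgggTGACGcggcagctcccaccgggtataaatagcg
Cartpt (chr2:32991342-32991401, minus strand): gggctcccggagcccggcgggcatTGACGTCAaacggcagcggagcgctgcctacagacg
Tac1 (chr4:36645350-36645409, plus strand): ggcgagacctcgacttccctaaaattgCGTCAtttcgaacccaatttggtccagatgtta
Vip and Tac1 also had the most alike organ patterns of any pair of different members (r = 0.895 across the means of 31 organs). That correlation is a description, since the organs came from the same animals and most of them lay near the lower end of the scale for both genes.

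Values are GCRMA signals on a log2 scale, so that a difference of 1 is a doubling. A mean above the threshold of the methods, which is a signal of 100.4 on the linear scale, was taken as measurable expression, and values near 2 are at the floor of the scale and have no order. Values of different probesets are not compared as amounts of RNA, because probesets differ in how strongly they bind. Organs were checked against defining markers. Of 62 markers listed, 50 were measured and 49 were above the threshold in their own organ, the exception being Aqp8 in the colon (4.79), and no marker was measured for the bone marrow. This does not show that samples were free of other tissue. Myh11 ranked 10 of 31 organs in the aorta, and Fabp2 and Vil1 each ranked 4 in the duodenum. Brain female 5 had 11.57 of the smooth muscle gene Actg2 (3.27 to 3.71 on the other brain arrays). The pituitary gene Prl ran from 6.79 to 11.32 in the ovary. On 3 arrays Xist and Eif2s3y went against the labelled sex (aorta male 3, heart male 5 and bone marrow male 5), and on 2 arrays both were above the threshold (bone marrow female 2 and thyroid male 1).

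All members but Adcyap1 were called higher in at least 1 organ. Over the 13 probesets and 31 organs, 33 of 403 pairs (8.19%) were called higher than the mean of the other organs, against 8% of pairs over all probesets. A call required an adjusted p under 0.05 from limma, a difference above 2-fold and an organ mean above the threshold. The calls covered 8 of the 9 genes and 20 organs, and the share called was near that of all probesets. Npy was called in 11 organs, Vip in 7, Penk in 6 and Gal in 3, while Pdyn, Tac1, Cartpt and Calca were each called in a single organ. The brain had calls for 4 genes, the jejunum and ileum for 3 genes each, and the pituitary, adrenal, colon and heart for 2 each. In whole organs, fewer cells of a type and less RNA per cell cannot be told apart.

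**Figure D1:**
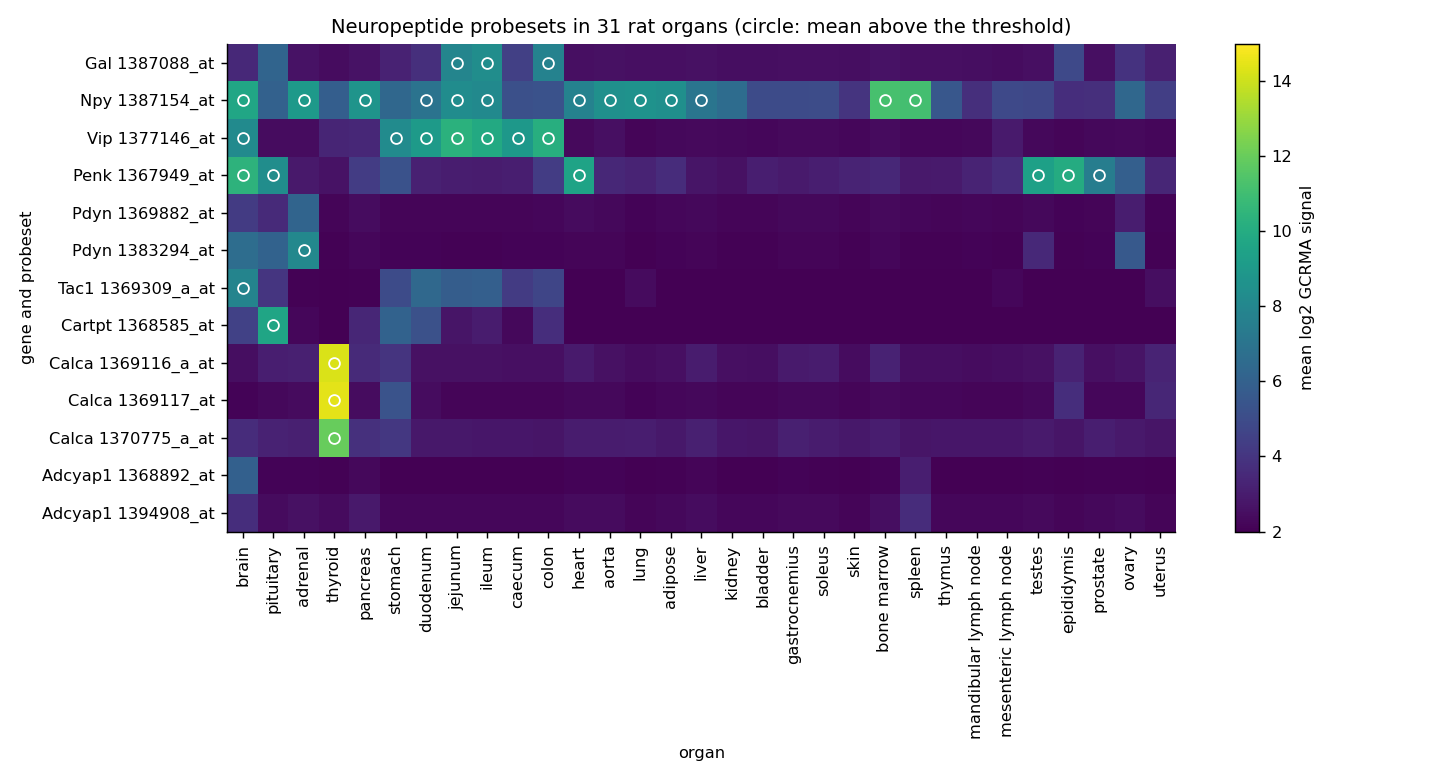
Mean log2 GCRMA signal (colour) of the 13 neuropeptide probesets (rows) in 31 rat organs (columns), over all arrays of an organ; white circles mark means above the threshold. Calca stands alone in the thyroid at 11.97 to 14.45, Vip fills the 6 gut segments and the brain, and Npy has the most circles (13).

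Calca had the highest values of all members, in the thyroid alone. Its probesets 1369116_a_at and 1369117_at ran from 13.84 to 14.64 (median 14.35) and from 14.09 to 14.65 (median 14.49) over the 10 thyroid arrays. The probeset 1370775_a_at, which is annotated to another sequence record, ran from 11.08 to 13.00 (median 11.90). No array of another organ came near these values, and the next organ was the stomach, with 3.96, 5.32 and 4.11 for the 3 probesets. The differences from the other organs were 11.48 (standard error 0.15, adjusted p = 2.21e-147 from limma), 12.01 and 8.98, and the means were at least 195.6-fold, 222.6-fold and 40.1-fold above the expression threshold. In the thyroid 6.77% of all probesets were called higher. Male and female thyroids were alike within their spread, at 14.25 ± 0.21 and 14.28 ± 0.32 for 1369116_a_at (SD, n = 5 each). Thyroid male 1, on which both Xist and Eif2s3y were high, had 14.01, 14.37 and 11.24, within the range of the other thyroid arrays.

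The thyroid arrays also held parathyroid RNA, since Pth, the parathyroid hormone gene, was at 14.97 in male and 15.11 in female thyroids beside Tg at 15.18 and 15.25. Pth was looked up after its values were seen. Across organ means, the genes most like Calca 1369116_a_at were Tg (r = 0.9855), the thyroglobulin gene of the follicle cells, Cryba2 (0.9838) and Pth (0.9786). Calcb, which encodes the second CGRP peptide, was called higher in the thyroid too (9.41, difference 6.14, standard error 0.17), as well as in the pancreas (8.69) and, at the threshold, the thymus. All 5 measured genes of peptide processing and 4 of 5 granins were called higher in the thyroid, with median differences of 3.48 and 4.05 for the peptide processing and granins lists, against -0.10 over all probesets. The convertase Pcsk2 was at 9.30 there and the convertase chaperone Scg5 at 11.54.

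Calca outside the thyroid was seen on single arrays. In the stomach 1369117_at gave 4.12, 9.05, 7.65, 5.47 and 6.17 on male arrays and 5.39, 3.95, 2.22, 4.66 and 4.55 on female arrays. Male 2 and male 3 alone were above the threshold, and the sexes overlapped. In the uterus a single array (female 1) reached 7.30 while the other 4 lay between 2.22 and 2.80, and in the epididymis male 2 was at 6.85, against 2.14 and 2.15 on the other arrays. That epididymis array also had 11.02 of Tg (3.63 and 5.60 on the others) and 8.24 of Pth (2.22 and 2.17), and the part of thyroid and parathyroid RNA in its Calca value was not tested. On the uterus and stomach arrays Tg was at most 2.29 and 3.12. The uterus array of female 1 did have the most of the sperm cell genes Prm1 and Tnp1. Prm1 was at 12.71 (3.78 to 8.86 on the other uterus arrays) and Tnp1 at 8.77 (2.57 to 5.63). The part of such RNA in its Calca value was not tested. The means of these organs stayed at or below 5.32, and none was called.

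Vip was measurable in the brain and in all 6 segments of the gut and had its largest means in the jejunum and colon. The jejunum ran from 9.90 to 10.76 (median 10.20), the colon from 9.05 to 11.32 (median 10.13) and the ileum from 9.16 to 10.65 (median 9.82). Means were 9.09 ± 0.90 in the duodenum (SD, n = 9), 8.92 ± 0.62 in the caecum, 8.25 ± 0.42 in the stomach and 8.22 ± 0.69 in the brain (SD, n = 10 each). Neighbours in this order overlapped, but the lowest brain array (6.89) lay above the highest pancreas array (5.67), and the pancreas was the next organ. Every one of the 7 organs was called higher (differences of 4.40 to 6.56, standard errors 0.19 or 0.20). Shares of all probesets called were 11.6% in the brain, 7.61% in the jejunum, 7.08% in the colon, 7.95% in the ileum, 7.09% in the duodenum, 7.49% in the caecum and 5.57% in the stomach. Neuronal markers averaged 9.74 per array in the brain and 4.35 to 5.21 in the gut segments, and 8 of the 9 listed were measured.

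Outside these 7 organs Vip was at the floor, apart from a few arrays. The mesenteric lymph node array of male 4 was at 7.83, whereas the other 3 male arrays lay between 2.21 and 2.33 and the female arrays between 2.15 and 2.24. On that array the smooth muscle genes were the highest of the group, with Actg2 at 12.97 (4.62 to 9.06 on the other male arrays) and Myh11 at 12.12 (7.32 to 10.31). The neuronal intermediate filament gene Prph was at 5.19 there (2.90 to 3.69), and the part of these tissues in the Vip value was not tested. Vipr1, which encodes a receptor for the peptide, was called higher in 9 organs, among them the lung (12.31), jejunum (10.93) and duodenum (10.62).

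Gal was measurable in the lower small bowel and colon, and not in the stomach or duodenum. In the ileum its values ran from 7.92 to 9.10 (median 8.36), in the jejunum from 7.44 to 8.56 (median 7.85) and in the colon from 6.18 to 8.79 (median 7.99). The caecum between them was lower, at 4.48 ± 1.52 (SD, n = 10), with 1 array above the threshold. All 3 organs were called (differences of 5.06, 4.57 and 4.44, standard errors 0.18 or 0.19). The genes with the most similar organ means were Hepacam2 (r = 0.8500), Edn2 (0.8445), which encodes an endothelin, and Nts (0.8284), which encodes neurotensin.

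Between large and small bowel 1 of the 13 probesets was called. The mean of caecum and colon was set against that of duodenum, jejunum and ileum, and Npy was called lower in the large bowel (5.22, against 7.84 in the small bowel). Its difference was -2.62 (standard error 0.18, adjusted p = 7.45e-31 from limma), and of all probesets 2.16% were called lower and 2.53% higher. Tac1 was lower in the large bowel too (4.51, against 6.06 in the small bowel, difference -1.55, adjusted p = 1.01e-25), but both means were under the threshold and so no call was made. Vip differed by -0.26 between the 2 parts (standard error 0.17, adjusted p = 0.300).

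The signals of Gal, Vip and Npy were lower in the stomach than in the small bowel. Gal was at 3.27 in the stomach and 6.71 in the small bowel (difference -3.44), Vip at 8.25 and 9.79 (-1.53), and Npy at 6.36 and 7.84 (-1.48). These 3 were called lower, with adjusted p of 5.42e-39, 1.76e-10 and 5.72e-09 from limma, and 5.17% of all probesets were called lower and 4.94% higher. Cartpt (2.45), Penk (2.17) and the 3 Calca probesets (1.30 to 3.05) were higher in the stomach with adjusted p at or under 4.34e-13, but their stomach means stayed under the threshold. Among the other neuropeptides of the fixed list, 23 of 24 were measured, and 2 were called higher and 3 lower in the stomach than in the small bowel. In the comparison of large with small bowel, 0 of the other neuropeptides were called higher and 3 lower.

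**Figure D2:**
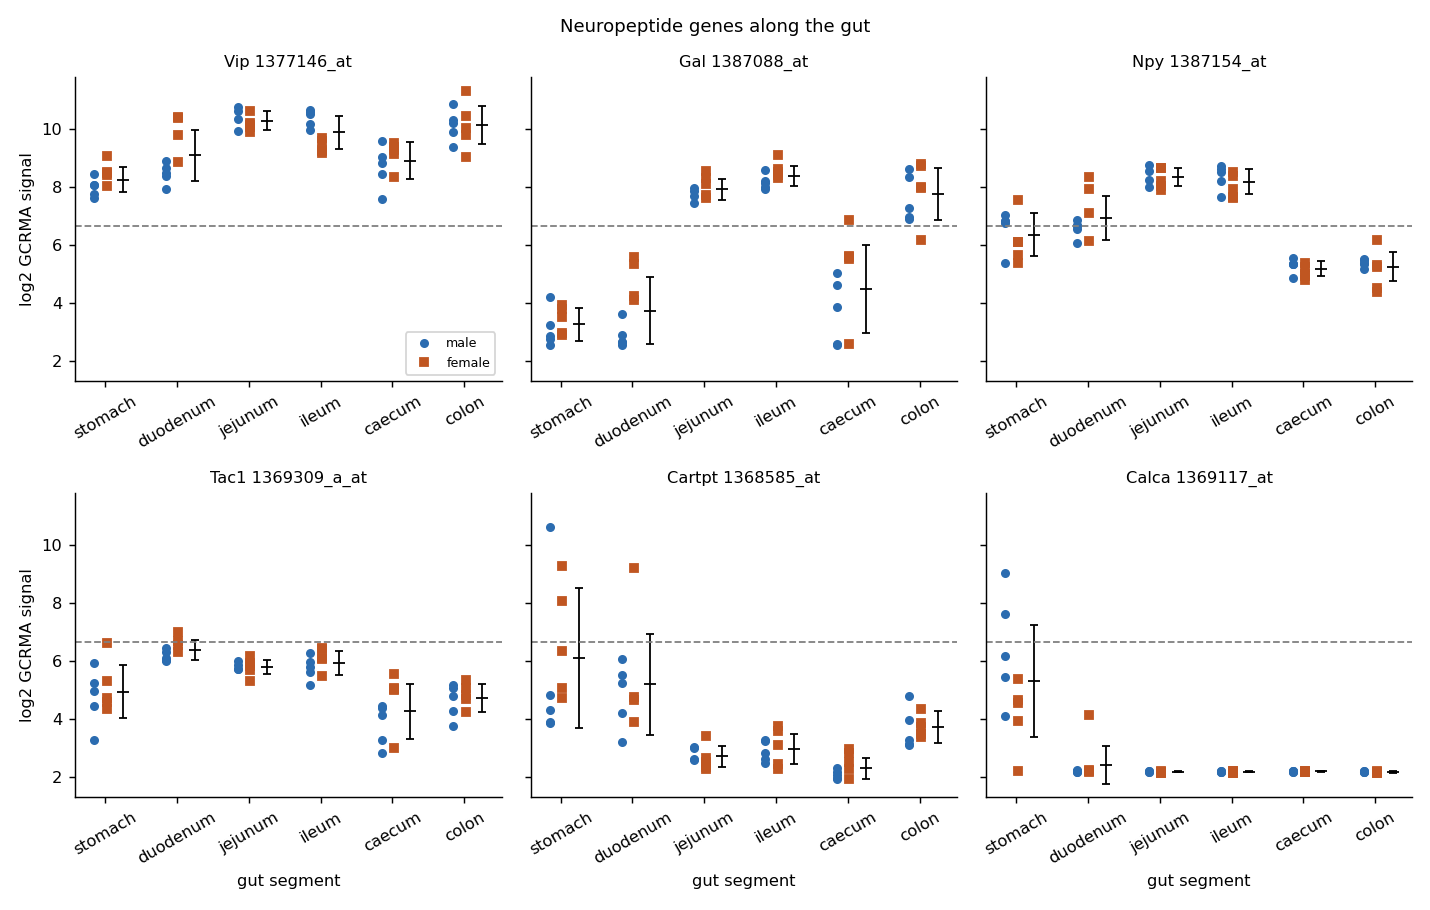
Log2 GCRMA signal of 6 neuropeptide probesets on each array (blue circles male, orange squares female) along the gut; black bars are the mean and SD over both sexes, and the dashed line is the threshold. Vip is above the line on every array, Gal only in the jejunum, ileum and colon and on 1 caecum array, Npy falls under the line in caecum and colon, and Cartpt and Calca stand out on single stomach arrays.

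Cartpt in the stomach differed more between arrays than between the sexes. It was at 10.63, 4.83, 3.88, 3.90 and 4.30 on male and at 5.07, 9.28, 6.35, 8.08 and 4.73 on female arrays. On the same arrays the forestomach keratin gene Krt13, looked up after the values were seen, was at 7.93, 12.48, 11.47, 12.52 and 12.49 in males and 14.09, 12.87, 2.23, 9.24 and 9.86 in females. Male 1, with the highest Cartpt, had the lowest Krt13 of the male arrays, while female 2 was high in both. Which regions of the stomach the samples held was not tested beyond these genes. In the duodenum Cartpt was at 9.23 on the array of female 1 and between 3.91 and 4.78 on the other female arrays. That array also had 10.90 of Atp4a, the proton pump gene of the gastric parietal cell, against 2.14 to 2.20 on the other female arrays, and its part in the Cartpt value was not tested further.

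Cartpt was highest in the pituitary, where it ran from 8.17 to 10.89 (median 9.40). This was the only organ in which it was called (difference 7.19, standard error 0.23). In the pituitary 8.66% of all probesets were called higher. Its closest patterns were those of Drd2 (r = 0.7965), the dopamine receptor of lactotrophs, Cga (0.7943), the common subunit of the glycoprotein hormones, and Ptprn2 (0.7917). Male and female pituitaries were at 9.95 ± 0.65 and 9.35 ± 0.95 (SD, n = 5 each), a difference of 0.60 with a standard error of 0.49 (adjusted p = 0.544 from limma). All 5 measured peptide processing genes and 4 of 5 granins were called higher in the pituitary, with median differences of 5.58 and 8.47 for the peptide processing and granins lists.

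In the pituitary Gal was lower and Penk higher in males, while Cartpt, the other member expressed there, did not pass the test. Over 26 somatic tissues, 4 of 338 pairs of member probeset and tissue (1.18%) were sexually dimorphically expressed (SDE), against 0.312% of all pairs. SDE stands for an adjusted p under 0.05, a change of more than 2-fold and expression above the threshold in one sex or both. Expression passed the threshold in one sex or both for 38 of the 338 pairs. The pituitary held 2 of the 4 SDE pairs, Gal and Penk, against 1.17% of all probesets there, and the adrenal and the duodenum held 1 each.

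Gal was at 3.09, 4.83, 3.51, 2.73 and 3.78 in the male pituitaries, against 8.00, 8.14, 8.33, 11.15 and 8.51 in the female ones. Every male array was under the threshold and every female array was above it. The difference, male minus female, was -5.24 (standard error 0.65, adjusted p = 0.00232 from limma), and since Gal was not measurable in males it is given as at least 4.52-fold lower. An exact permutation test gave p = 0.00794, two-sided, the smallest that 5 against 5 arrays allow. Female 4 stood apart at 11.15. Galanin is known to be made in rat lactotrophs and to respond to oestrogen.

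Tac1 and Penk were higher in males. Tac1 was at 6.19, 5.65, 6.55, 6.91 and 3.39 in male pituitaries, against 2.16, 2.04, 2.08, 2.15 and 2.90 in female ones. The sexes did not overlap (difference 3.47, standard error 0.61, adjusted p = 0.0110 from limma), but the male mean of 5.74 was under the threshold, so that Tac1 was not SDE. Penk was at 8.87, 9.44, 9.40, 9.23 and 8.71 in males, against 7.14, 7.61, 7.87, 8.07 and 7.34 in females. All arrays were above the threshold and the sexes did not overlap (difference 1.52, standard error 0.21, adjusted p = 0.00396 from limma). The exact permutation test gave p = 0.00794 for both genes, the value that 5 against 5 arrays without overlap always give.

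These differences were compared with those in the brain and adrenal, where expression was partly too low to measure. Gal was under the threshold on every brain and adrenal array, and Tac1 and Penk on every adrenal array. Those comparisons cannot show whether a sex difference is absent where the gene is expressed. The sex difference of Gal in the pituitary was lower than that in the brain by -5.89 (standard error 0.91, adjusted p = 0.00153 from limma) and than that in the adrenal by -5.19 (standard error 0.67, adjusted p = 0.000135). For Tac1 the sex difference was larger in the pituitary by 3.33 than in the brain (adjusted p = 0.0301) and by 3.48 than in the adrenal (adjusted p = 0.00214). For Penk it was larger by 1.74 than in the brain (adjusted p = 0.0171), and the 1.19 against the adrenal did not pass (adjusted p = 0.0585). Thus 3 of the 13 probesets passed against the brain and 2 against the adrenal, where 2.18% and 7.79% of all probesets passed. Leaving out 1 replicate at a time ended the call of Tac1 against the brain in 8 of 10 cases and that of Penk in 3.

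**Figure D3:**
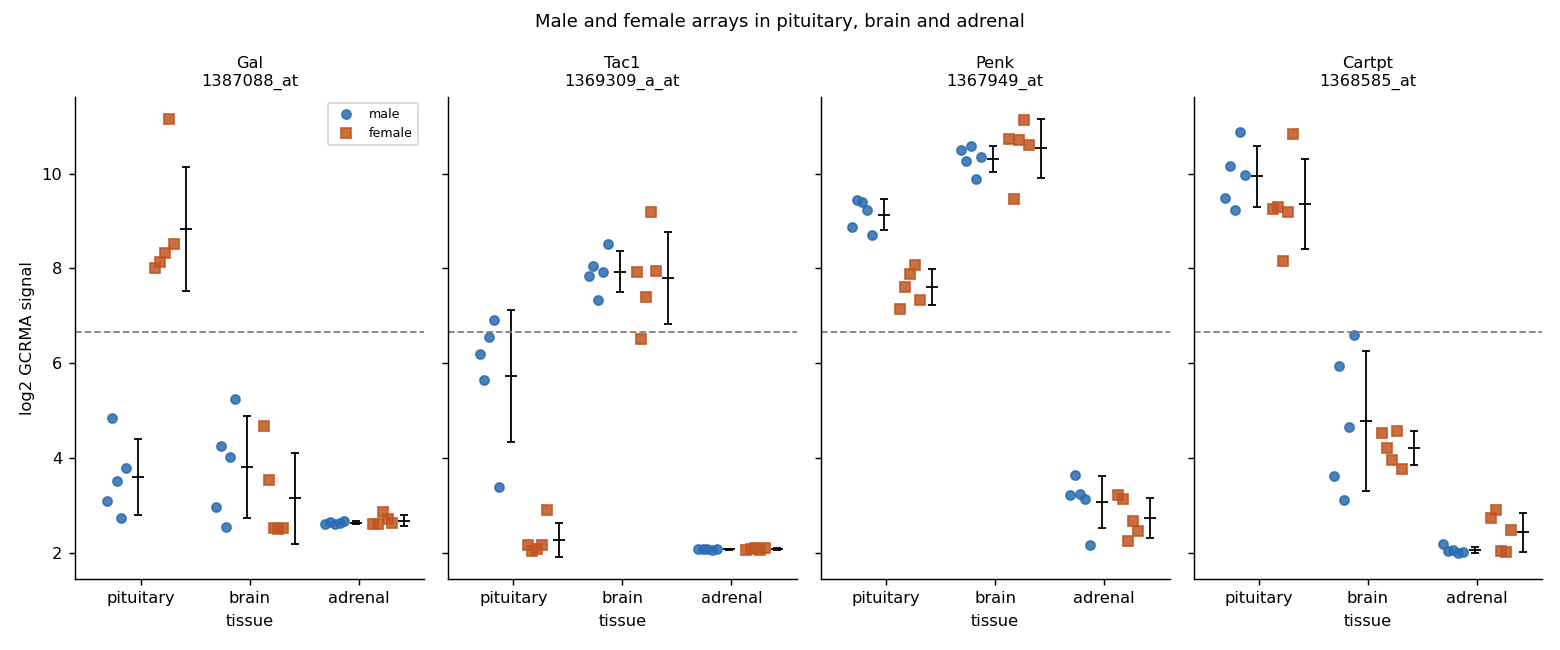
Log2 GCRMA signal of Gal, Tac1, Penk and Cartpt on each male (blue circles, left) and female (orange squares, right) array in the pituitary, brain and adrenal, with mean and SD (n = 5 each) and the threshold line. In the pituitary the sexes do not overlap for Gal, Tac1 and Penk, and they overlap for Cartpt; in the brain and adrenal they overlap for all 4.

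Other markers of the pituitary moved with sex as well. Of 7 anterior pituitary genes, Fshb was SDE (12.67 in males, 9.08 in females, difference 3.59). Tshb differed by 0.60 (adjusted p = 0.0052), Prl by -0.23 (adjusted p = 0.0030) and Cga by 0.13 (adjusted p = 0.048), all under 2-fold, and Gh1, Lhb and Pomc did not pass. The mean of the 7 genes lay between 13.30 and 13.56 on male arrays and between 12.35 and 12.97 on female arrays. The neural lobe genes were under the threshold on every array, with Oxt at 5.85 to 6.64 in males and 2.80 to 5.07 in females (adjusted p = 0.0176) and Avp at 2.43 to 5.78 in males and 2.27 to 3.94 in females. Male 1 and female 1 also had the adrenal cortex gene Cyp11b1, at 7.39 and 9.86. The part of cell makeup and of adrenal RNA in the Gal, Tac1 and Penk differences was not tested. None of the 20 receptors, 23 other neuropeptides, 5 peptide processing genes or 5 granins was SDE in the pituitary (limma, with the same criteria). Calcb was at 5.89, 5.44, 7.36, 6.79 and 3.58 in males, against 2.37 to 2.42 in females. The sexes did not overlap (difference 3.41, adjusted p = 0.0126), and like Tac1 it was not SDE because both means were under the threshold. Of the granins, Chga was higher in males by 0.78 and Chgb and Scg3 lower (-0.48 and -0.47), and of the peptide processing genes Pcsk1n was higher by 0.56, all with adjusted p under 0.05 and changes under 2-fold.

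Penk was found in the brain, heart, male tract and pituitary. Brain values ran from 9.46 to 11.13 (median 10.54) and heart values from 9.19 to 10.07 (median 9.53). The testes were at 9.44, 9.23, 9.19 and 9.66 and the prostate at 8.15, 6.93, 7.31, 7.96 and 7.22. Epididymis arrays spread widely, at 10.13, 12.16 and 7.62. On the same 3 arrays the sperm cell genes Tnp1 (7.91, 7.48 and 2.63) and Prm1 (12.21, 11.63 and 9.42) and the neuronal marker Uchl1 (9.85, 10.42 and 5.04) were lowest where Penk was lowest, while the smooth muscle gene Actg2 (9.82, 10.20 and 12.71) was highest there. The neuronal markers Snap25 (2.03, 2.07 and 3.24), Prph (2.68, 2.70 and 2.86) and Elavl4 (2.10, 2.13 and 2.10) were not raised with Uchl1. They were at or near the floor, so their order is not read. The part of these cells in the Penk values was not tested. All 6 organs were called higher, with differences of 6.08 in the brain, 5.61 in the epididymis, 5.17 in the heart, 5.00 in the testes, 3.96 in the pituitary and 3.07 in the prostate. Shares of all probesets called were 8.33% in the epididymis, 8.51% in the heart, 12.6% in the testes and 8.85% in the prostate. Rat heart and male germ cells are known for Penk transcripts. In the ovary 2 of 5 arrays were above the threshold (mean 5.94 ± 1.26, SD), and no call was made.

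Enzymes that finish peptides were also high in the heart. Pam (12.89, difference 2.65) and Cpe (12.53, difference 2.34) were called higher there, 2 of the 5 measured peptide processing genes. None of 8 neuronal markers or 5 granins was called in the heart, and the neuronal markers averaged 2.65 to 2.79 per array, close to the floor. Heart male 5, which was at odds with its label, had 9.75 of Penk, within the range of the rest. The nearest patterns to Penk were Ptgds (r = 0.8104), which encodes prostaglandin D synthase, Rbm11 (0.8094) and Sgsm2 (0.8065). In the adrenal, by contrast, Penk lay between 2.16 and 3.63 although the chromaffin cell enzyme genes Th (10.26 to 11.31) and Pnmt (10.37 to 11.38) were high on the same arrays.

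**Figure D4:**
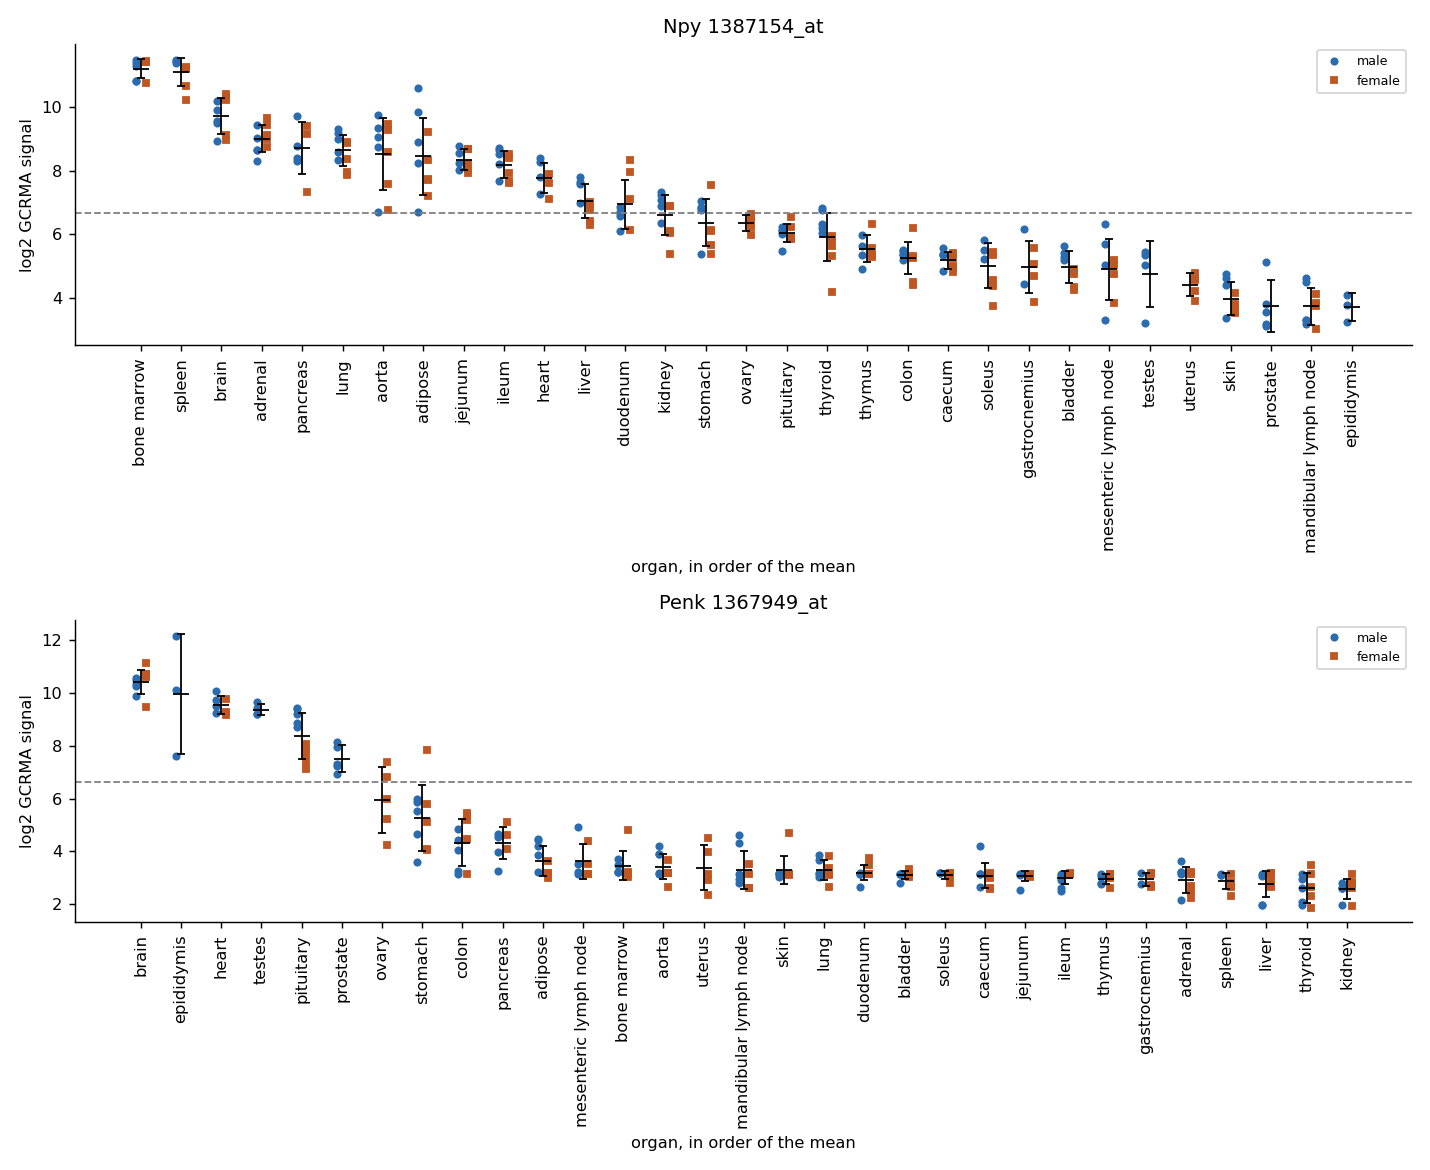
Log2 GCRMA signal of Npy (top) and Penk (bottom) on each array (blue circles male, orange squares female) in 31 organs ordered by the mean, with mean and SD bars and the threshold line. Npy declines gradually, with bone marrow and spleen first (11.21 and 11.11), whereas Penk drops from 7.51 in the prostate to 5.94 in the ovary and stays low after it.

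Npy was the most widespread member and was highest in blood-forming organs. The bone marrow ran from 10.76 to 11.49 (median 11.40) and the spleen from 10.22 to 11.47 (median 11.24), above the brain at 8.93 to 10.41 (median 9.73) and the adrenal at 8.30 to 9.64 (median 9.01). Means lay between 7.76 and 8.71 in the pancreas, lung, aorta, adipose, jejunum, ileum and heart, all called higher. The liver (7.05) and duodenum (6.93) were above the threshold and not called. Each organ down to the 14th overlapped with its neighbour in this order. Differences from the other organs were 4.74 in the bone marrow (standard error 0.21) and 4.71 in the spleen (standard error 0.23), and 1.15 in the heart, the smallest. Against the 26 somatic tissues alone the heart difference was 0.75 and no longer passed 2-fold. Shares of all probesets called were 8.87% in the bone marrow, 8.32% in the spleen, 6.82% in the adrenal, 3.61% in the pancreas, 8.52% in the lung, 6.77% in the aorta and 7.28% in the adipose.

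Markers of megakaryocytes, the platelet-forming cells in which rodents are known to make Npy, were high in the same 2 organs. Pf4, Itga2b, Gp9 and Ppbp averaged 10.46 to 11.30 per array in the bone marrow and 8.13 to 9.89 in the spleen, and at most 6.06 on any array of another organ. Neuronal markers averaged 2.78 to 3.11 in the bone marrow and 2.79 to 3.11 in the spleen, and none of the 8 had a mean above the threshold there. The part of megakaryocytes in the Npy values was not tested. The genes most like Npy in pattern were Alox15 (r = 0.7463), Ahsp (0.6966), the haemoglobin-stabilising protein gene of red cell precursors, and Cbln2 (0.6641). Npy1r, which encodes the Y1 receptor, was called in neither organ, but in the adipose, brain, both skeletal muscles, skin (8.63) and thyroid (7.75).

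Npy varied strongly between arrays of fat-rich and vascular samples. In the adipose it was at 6.70, 10.60, 8.23, 9.85 and 8.90 in males and 7.70, 9.21, 7.21, 7.75 and 8.35 in females. In the aorta it was at 6.70, 8.75, 9.34, 9.05 and 9.76 in males and 9.46, 6.76, 9.27, 7.58 and 8.57 in females. The sexes overlapped in both tissues.

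Pdyn was called in the adrenal alone, by 1 of its 2 probesets. On 1383294_at the adrenal ran from 6.70 to 8.87 (median 8.09), the brain from 5.31 to 7.98 (median 6.71), the pituitary from 4.51 to 7.01 (median 6.33) and the ovary from 4.52 to 6.60 (median 5.89). On 1369882_at the same 4 organs led in the same order with lower values, from 6.21 in the adrenal to 3.03 in the ovary, and the 2 probesets had r = 0.928 across organ means. Pituitary male 1 and female 1 also had the adrenal cortex gene Cyp11b1, at 7.39 and 9.86, against 2.28 to 2.47 on the other pituitary arrays. The part of adrenal RNA in the pituitary Pdyn values was not tested. The adrenal difference was 5.50 (standard error 0.11) on 1383294_at. Its nearest patterns were Tcaf1 (r = 0.9598), Tmem178b (0.9528) and Map7d2 (0.9178).

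Pdyn was lower in the male than in the female adrenal. On 1383294_at the male arrays were at 6.70, 7.61, 7.89, 7.48 and 7.98, against 8.76, 8.21, 8.87, 8.87 and 8.29 in females, without overlap. It was SDE, with a male minus female value of -1.06 (standard error 0.25, adjusted p = 0.0469 from limma), and so were 0.886% of all probesets in the adrenal. On 1369882_at the males were at 5.16, 5.29, 5.92, 6.07 and 6.23, against 6.41, 6.92, 7.34, 7.21 and 5.53 in females, and the difference of -0.95 did not pass (adjusted p = 0.182). The call on 1383294_at ended whenever any 1 replicate was left out and under the methods' t-test (adjusted p = 0.0816). The exact permutation test gave an unadjusted p = 0.00794, which 5 against 5 arrays without overlap always give, so it adds nothing to the lack of overlap. Chromaffin cell genes averaged 10.08 to 10.97 on male and 10.50 to 10.93 on female arrays, and 0 of those 6 were SDE. Among them Th was at 10.47 in males and 11.09 in females, with overlap, while Dbh, Pnmt and Chga differed less. The 3 measured adrenal cortex genes averaged 14.23 to 14.43 on male and 14.35 to 14.47 on female arrays. The part of cortex and medulla in the Pdyn difference was not tested.

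Vip in the duodenum was at 8.90, 8.49, 8.66, 8.37 and 7.94 in males, against 8.86, 10.42, 9.81 and 10.38 in females. A single male array overlapped with the lowest female one, which was the array of female 1 with the gastric gene. The difference was -1.40 (standard error 0.34, adjusted p = 0.0435 from limma), and 2.78% of all probesets were SDE in the duodenum. Leaving out 1 of the 9 arrays at a time ended the call in 8 cases, and the exact permutation test gave p = 0.0317. Without female 1 the call held at -1.73. In the ileum Vip lay the other way, at 9.96 to 10.65 in males and 9.16 to 9.69 in females, without overlap, but neither the 2-fold nor the p criterion was met (difference 0.99, adjusted p = 0.0669 from limma). On those ileum arrays the neuronal marker Snap25 was lower in males without overlap (5.48 to 6.21, against 6.60 to 6.93 in females). Prph was at 6.43 to 7.20 in males and 7.03 to 7.68 in females, and the sexes overlapped for Prph, Uchl1 and Elavl4.

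Gal in the duodenum was at 3.62, 2.88, 2.66, 2.66 and 2.54 in males, against 5.33, 4.09, 5.58 and 4.23 in females. The sexes did not overlap (difference -1.94, adjusted p = 0.0192), but all arrays were under the threshold. In the same tissue the 8 neuronal markers averaged 4.33 to 4.77 on male arrays and 4.66 to 5.34 on female arrays, and smooth muscle genes 11.13 to 11.96 and 11.54 to 13.11. None of these 13 genes was SDE, but 3 of the neuronal markers were lower in males without overlap. These were Prph (6.06 to 7.05 in males, 7.10 to 7.94 in females), Snap25 (5.70 to 6.77 and 6.94 to 7.60) and Elavl4 (2.19 to 2.60, near the floor, and 2.78 to 4.87). The smooth muscle gene Myh11 was also lower in males without overlap (11.89 to 12.26 in males, 12.61 to 13.98 in females), and the adjusted p of these 4 genes lay between 0.0623 and 0.0991. The granin gene Scg2 was lower in males too (7.74, against 8.63 in females, adjusted p = 0.0251). Ins2, the insulin gene of the pancreas, was at 2.05, 8.00, 9.20, 11.76 and 11.56 in males and between 1.90 and 9.45 in females, and its sexes overlapped. Among the males Vip was highest where Ins2 was lowest and lowest on one of the 2 arrays where Ins2 was highest. The females did not keep to this order. Vip was lowest on female 1, with the most Ins2, but highest on female 2, with the next most. Cela1, another pancreas gene, was also highest on female 1 among the females (13.22). Among the males its highest array (male 4, 13.37) was not the one with the lowest Vip. The part of neurons, muscle and pancreas in the Vip and Gal differences was not tested.

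**Figure D5:**
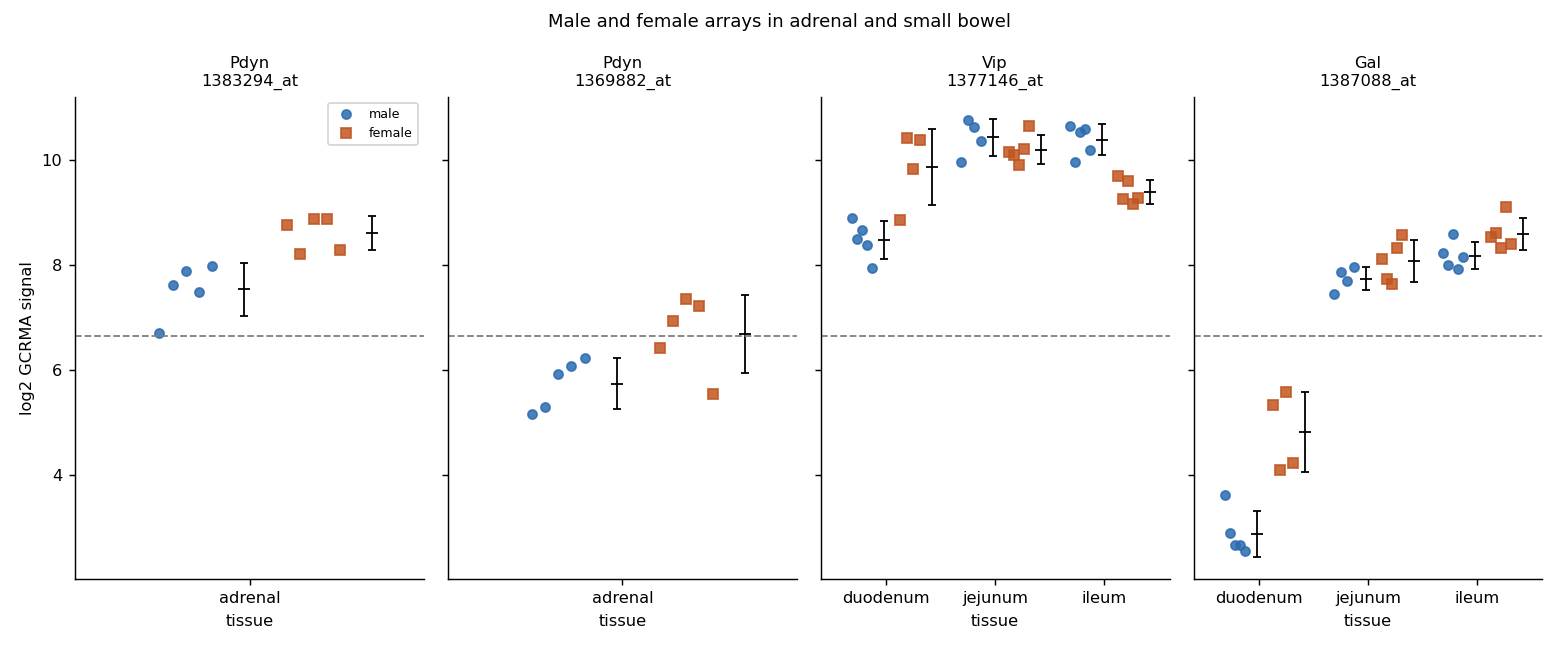
Log2 GCRMA signal on male (blue circles, left) and female (orange squares, right) arrays for both Pdyn probesets in the adrenal and for Vip and Gal in the duodenum, jejunum and ileum, with mean and SD and the threshold line. The sexes separate for Pdyn 1383294_at and overlap for 1369882_at; Vip is lower in males in the duodenum and higher in the ileum.

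Tac1 was measurable in the brain alone, at 6.50 to 9.19 (median 7.93), where it was called (difference 5.08, standard error 0.14). The small bowel came next, with means of 6.40 in the duodenum, 5.95 in the ileum and 5.81 in the jejunum, and 2 duodenum arrays were above the threshold. Tacr2, the receptor gene for neurokinin A, was called higher in the bladder (9.42), colon (8.06), stomach (7.93), caecum (7.61) and duodenum (6.97). Adap1 (r = 0.9218), Sstr1 (0.9193) and Plcxd2 (0.9150) had the nearest patterns, and Adap1 was also the nearest to Vip (0.9563).

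Adcyap1 was called in no organ. Its probeset 1368892_at ran from 5.32 to 6.54 (median 6.08) in the brain and was otherwise near the floor, and 1394908_at reached 3.69 ± 0.62 there (SD, n = 10). The only array above the threshold was that of the spleen of female 3, with 7.53 on 1394908_at and 6.02 on 1368892_at. The other spleen arrays lay between 2.31 and 4.21 on 1394908_at and between 2.31 and 3.66 on 1368892_at. The receptor gene Adcyap1r1 was called higher in the brain (9.04, difference 5.13).

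Brain arrays differed in hypothalamic peptide genes, which were looked at after their values were seen. Oxt, the oxytocin gene, was at 1.99, 9.13, 2.10, 6.08 and 8.55 in males and 6.50, 7.00, 2.10, 2.03 and 2.06 in females, and the vasopressin gene Avp at 2.19, 7.96, 2.22, 6.77 and 7.50 in males and 5.76, 6.18, 2.34, 2.22 and 2.20 in females. On the same arrays Gal was at 2.97, 4.26, 2.53, 4.02 and 5.25 in males and 4.67, 3.53, 2.52, 2.51 and 2.52 in females, and Cartpt at 3.62, 5.94, 3.12, 4.65 and 6.59 in males and 4.53, 4.22, 3.96, 4.57 and 3.76 in females. Gal and Cartpt stayed under the threshold on every brain array, and how much hypothalamus each sample held was not tested. Penk (9.46 to 11.13) and Npy (8.93 to 10.41) were high on all 10 brain arrays.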

How the data were processed

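RNA of 31 organs from 5 male and 5 female rats was hybridised to RAE230_2 arrays, 1 animal and organ per array. The deposited values are log2 signals, which the authors computed with GCRMA, a background correction, quantile normalization and probe summary. They ran from 1.02 to 15.83, with array medians of 3.86 to 4.45. Read depth does not apply to arrays, and the number of arrays limits the precision. Gene names came from the platform annotation (20826 probesets with 1 symbol, 436 with several, 9780 with none).

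Tests used limma 3.58.1 in R 4.3.3, with Benjamini-Hochberg adjustment over all 31042 probesets, and were tested on simulated data. Sex was compared within each somatic tissue, male minus female. Organs, gut segments and sex differences between tissues were compared in fits over groups of organ and sex. Exact permutation tests used scipy 1.17.1. They covered the 4 SDE pairs and Tac1 in the pituitary, which were picked from these same values, and their p was not adjusted. Equal replicate numbers in males and females are different animals, and in none of 23 tissues with 3 or more pairs did every pair correlate above 0.1. Organs of 1 animal do come from the same animal, but the labels do not say that a replicate number is the same animal in each organ. The random block was the sex and replicate number, with the testes kept apart. The correlation within these blocks was 0.012 over all organs. Since the blocks may not be animals, it cannot show whether animal effects were small. Alternatives were the methods' t-test, other spreads, thresholds and scalings, the replicate block, the somatic tissues alone, and leaving out arrays. Named are all members, up to 4 called genes of each list in a described comparison, cell markers beside a result, and the 3 probesets most alike to each member with an organ mean above the threshold. Genes outside this rule are said to have been chosen after their values were seen. The members and the lists were chosen with earlier results of these data known.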

Additional observations from a re-analysis of the deposited data

Results flagged for a closer look

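Of 87 groups of 4 or 5 arrays in which at least 1 array of a member was above the threshold, 7 had an array far from the rest. Chance gives about 1 in 20 groups, and more where, as here, a high array could bring its group in. Gal in the pituitary of female 4 was at 11.15, against 8.00 to 8.51 on the other female arrays. Npy in the bone marrow of female 3 was at 10.76, against 11.41 to 11.44, and Npy in the stomach of male 1 was at 5.37, against 6.75 to 7.04. Cartpt on that same stomach array was at 10.63, against 3.88 to 4.83 in the other males. Cartpt in the duodenum of female 1 was at 9.23, against 3.91 to 4.78. Vip in the mesenteric lymph node of male 4 was at 7.83, against 2.21 to 2.33, and Calca (1369117_at) in the uterus of female 1 was at 7.30, against 2.22 to 2.80.

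Sex differences that were not the same in 2 tissues, by the test of the difference itself, were those of Gal (-5.89 for pituitary minus brain and -5.19 for pituitary minus adrenal), Tac1 (3.33 and 3.48) and Penk (1.74 for pituitary minus brain). Gal was under the threshold on every brain and adrenal array, and Tac1 on every adrenal array.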

How the results depend on the processing

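The 4 SDE pairs became 2 under the methods' t-test and 2 with the replicate block, and 2 to 4 when 1 replicate was left out. Since Pdyn in the adrenal was lost in all 10 of those cases, a count of 4 there included a pair outside the original 4. The calls lost were those of Pdyn in the adrenal and Vip in the duodenum. Pdyn was at -1.06 with the t-test (adjusted p = 0.0816), -1.06 with the replicate block (0.137), -1.01 after median centring (0.0578) and -1.18 to -0.86 with 1 array left out, and the call was lost in all 10 cases. Vip was at -1.40 with the t-test (0.0771), -1.37 with the replicate block (0.231) and -1.73 to -1.21 with 1 array left out. Gal and Penk in the pituitary kept their calls throughout (-5.55 to -4.66 and 1.41 to 1.64 with 1 array left out). Without the expression threshold Tac1 in the pituitary (3.47) was called, and the organ pairs were 58 in place of 33, the large bowel probesets 2 in place of 1 and the stomach probesets 9 in place of 3. With 1 replicate left out the organ pairs were 33 or 34. Sex differences for pituitary minus brain were then 2.95 to 4.06 for Tac1, 1.57 to 2.01 for Penk and -6.48 to -5.15 for Gal. For pituitary minus adrenal, Penk ran from 0.95 to 1.38 and passed only without female 3 (1.38, adjusted p = 0.0433). Leaving out 4 of the arrays at odds with their sex (aorta male 3, heart male 5, bone marrow male 5 and female 2) changed no call. Of 470 alternatives of single genes in organs, 469 kept the call, the exception being Npy in the heart. Causes were not tested. Group sizes of 2 to 5 arrays limit what could be detected.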

Other observations

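Of the other neuropeptides of the list, 4 of 23 measured were called in each of the jejunum, ileum and pancreas, where 7.61%, 7.95% and 3.61% of all probesets were called. Those of the jejunum were Nts, the neurotensin gene (10.56), Nmu, the neuromedin U gene (8.89), Cck (7.20), the cholecystokinin gene of enteroendocrine cells, and Sst (6.80), the somatostatin gene. In the ileum Pyy, the peptide YY gene (9.45), took the place of Sst, and in the pancreas the called genes were Iapp, the amylin gene (12.98), Ppy, the pancreatic polypeptide gene (10.80), Sst (10.27) and Calcb (8.69). In the pituitary 2 of 23 were called, Pomc (9.25), the precursor of corticotropin, and Nmb (7.84), the neuromedin B gene, beside 8.66% of all probesets. Ramp1, which completes the CGRP receptor, was called higher in the colon (11.08, difference 3.27). Of the peptide processing genes, Cpe, the carboxypeptidase E gene, was SDE and lower in males in the duodenum (-1.23) and the kidney (-2.64).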
